A study of Mus musculus with 9 samples.

Results

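The Ly6 family surface genes and Cd177 were followed here across sorted lung neutrophils. They are 8 genes, taken by symbol from the deposited expression table: Ly6g, Ly6c1, Ly6c2, Ly6a, Ly6e, Ly6d, Ly6i and Cd177. All 8 were among the 18325 genes with values, of 22064 listed, and 7 of them were among the 14108 genes tested. Ly6d was under the filter on low counts.

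The data were bulk RNA-seq of 9 libraries, 3 in each of 3 groups, from female BALB/c mice bought at 6 to 8 weeks of age. Ly6Ghigh MACRO and Ly6Glow MACRO neutrophils were sorted by flow cytometry from lungs at the macrometastatic stage, after 4T1-LM3 cells had been injected into the mammary fat pad. 4T1-LM3 is a lung-tropic line derived from the mouse mammary carcinoma line 4T1 by 3 rounds of selection in mice, and carries a luciferase reporter. The third group was Ly6Ghigh neutrophils from normal lung, called NL below. Cells were gated as CD45-positive and split by surface Ly6G, with the border set at the inflection of the staining histogram, so that Ly6G protein, the product of Ly6g, defined the sort and its RNA did not. No source used here says whether a library came from 1 mouse or from several, so that p-values measure the spread between libraries, which may be technical.

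Proteins of the Ly6 family are small, carry the three-finger fold of the LU domain, and are mostly held at the cell surface by a glycosylphosphatidylinositol (GPI) anchor. Ly6g is the usual marker of mouse neutrophils, Ly6c1 and Ly6c2 together encode the Ly6C antigen of monocytes and other cells, Ly6a encodes Sca-1, and Ly6e is widely expressed and inducible by interferon. Cd177 is a GPI-anchored neutrophil protein of the plasma membrane and the specific granules that associates with beta2 integrins and binds PECAM1.

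In GENCODE M21 on GRCm38, the assembly also called mm10, which the submitters' processing notes name, 7 members lie on chromosome 15 within 397.1 kb, at chr15:74762056-75159126. Ly6g lies at chr15:75155240-75159126 on the plus strand, Ly6c1 at chr15:75044018-75048830 and Ly6c2 at chr15:75108158-75111970, both on the minus strand. Cd177 lies apart, at chr7:24743983-24760311 on the minus strand. The likeness of Ly6c1 and Ly6c2 limits how far their reads can be told apart. The first 300 bases of the coding sequences of both, and of Ly6g beside them, are shown. They are the GENCODE reference sequences, 5′ to 3′, and capitals mark the bases at which the 3 genes are not all alike in their alignment.

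Ly6c1: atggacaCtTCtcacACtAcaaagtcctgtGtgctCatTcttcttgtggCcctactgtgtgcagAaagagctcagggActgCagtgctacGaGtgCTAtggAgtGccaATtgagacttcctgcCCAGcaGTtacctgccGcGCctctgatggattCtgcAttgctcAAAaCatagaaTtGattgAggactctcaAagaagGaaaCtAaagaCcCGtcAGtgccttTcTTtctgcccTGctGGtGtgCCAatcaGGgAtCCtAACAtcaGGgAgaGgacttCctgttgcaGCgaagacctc
Ly6c2: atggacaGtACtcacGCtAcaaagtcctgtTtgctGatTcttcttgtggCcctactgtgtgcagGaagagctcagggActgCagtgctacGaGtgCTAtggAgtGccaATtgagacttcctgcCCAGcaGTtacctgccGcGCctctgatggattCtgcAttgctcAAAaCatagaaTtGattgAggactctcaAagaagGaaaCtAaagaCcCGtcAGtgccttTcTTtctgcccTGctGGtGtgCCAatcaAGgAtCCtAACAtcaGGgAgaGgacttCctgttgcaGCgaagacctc
Ly6g: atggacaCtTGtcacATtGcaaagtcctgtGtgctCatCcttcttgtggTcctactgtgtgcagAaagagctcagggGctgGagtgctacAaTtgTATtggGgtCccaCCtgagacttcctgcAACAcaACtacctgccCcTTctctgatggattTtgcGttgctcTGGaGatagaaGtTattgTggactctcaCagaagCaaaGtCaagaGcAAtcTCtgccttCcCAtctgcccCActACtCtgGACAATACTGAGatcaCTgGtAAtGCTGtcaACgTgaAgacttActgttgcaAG

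Over their whole coding sequences, Ly6c1 and Ly6c2 were identical at 384 of 393 aligned coding bases (97.7%), with 188 bases in the longest identical run. Ly6g matched Ly6c1 at 79.9% and Ly6c2 at 78.6% of aligned bases, and Ly6a matched Ly6i at 86.3%. Of all windows as long as 1 sequencing read (150 bases) in the Ly6c1 transcript, 5.6% also occur in a transcript of another gene, in each case Ly6c2. The share was 5.8% for Ly6c2 and 0 for the other 6 members. At 50 bases the shares were 36.7% for Ly6c1, 33.0% for Ly6c2, 10.0% for Ly6a, 5.7% for Cd177, 5.0% for Ly6i and 0.4% for Ly6g. Reads from shared stretches cannot be assigned to Ly6c1 or Ly6c2 by sequence alone. How the counter divided them is not known, so that the separate levels of Ly6c1 and Ly6c2 carry some uncertainty. The reference is of strain C57BL/6, whereas the mice were BALB/c, which carry another Ly6 haplotype, and how far this moved counts between the members was not tested.

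RefSeq promoter windows (GRCm38.p6, 250 bases before to 50 after the start) were matched for 4 of the 8 members, and the first window listed for each was used. Those of Ly6g and Cd177 are shown because both genes were higher in the neutrophils of metastatic lung (below), and capitals mark GAGGAAGT, a motif of the myeloid factor PU.1, searched on both strands.

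Ly6g promoter, chr15:75155011-75155310, plus strand: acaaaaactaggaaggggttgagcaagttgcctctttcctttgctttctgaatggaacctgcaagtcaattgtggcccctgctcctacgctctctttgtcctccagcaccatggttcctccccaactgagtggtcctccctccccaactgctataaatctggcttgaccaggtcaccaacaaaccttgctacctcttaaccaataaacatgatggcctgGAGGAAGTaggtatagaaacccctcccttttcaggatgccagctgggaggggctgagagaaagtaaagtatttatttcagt
Cd177 promoter, chr7:24760262-24760561, minus strand: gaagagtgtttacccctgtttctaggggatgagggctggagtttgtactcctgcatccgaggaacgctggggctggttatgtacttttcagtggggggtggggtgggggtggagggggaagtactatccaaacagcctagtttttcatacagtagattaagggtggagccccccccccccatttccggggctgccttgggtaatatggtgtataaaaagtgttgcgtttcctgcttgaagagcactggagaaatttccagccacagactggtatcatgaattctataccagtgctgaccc

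The PU.1 motif occurred 1 time in the window of Ly6g and 2 times in that of Ly6c2, and did not occur in those of Ly6c1 and Cd177. Of all 32851 windows, 3.2% held it. The C/EBP motif TTNCNNAA, searched on both strands, occurred 2 times each in the windows of Ly6g and Ly6c2 and 1 time in that of Cd177, with 40.7% of all windows holding it. These are matches of letters only.

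Libraries held 15267177 to 17841807 estimated counts, and each of the 9 was most like a library of its own group. No pair of libraries was identical. NL replicate 2 differed from the other NL libraries by 4.03 and 5.27 times the chi-square noise expected of counting, against 1.38 to 2.31 for the other pairs of replicates, and no call on a member changed when it, or any other library, was left out. The description of the NL libraries names the Ly6Ghigh group only, and their assignment to normal lung rests on the titles and treatment labels. All 3 groups held neutrophil RNA, with 14 neutrophil markers summing to 76930 to 78790 CPM (counts scaled to a common library size) in Ly6Ghigh MACRO, 87710 to 89510 in Ly6Glow MACRO and 24560 to 24770 in NL. The NL libraries also held more RNA of other lung cells. The 10 endothelial markers summed to 1242 to 1310 CPM in NL, against 130.8 to 134.5 in Ly6Ghigh MACRO and 152.3 to 157.9 in Ly6Glow MACRO, and 12 epithelial markers to 1109 to 1245, against 103.8 to 109.9 and 106 to 112.2. Below, Ly6a, Ly6c1, Ly6e and Ly6i were likewise higher in NL, whereas Ly6g and Cd177 were lower there. The part of other cells in any difference from NL was not tested. In bulk samples, fewer cells of a type and less RNA per cell cannot be told apart.

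A gene was called higher or lower where its adjusted p was at most 0.05 and its log2 difference was above 0.58 in size. Ly6g and Cd177 were the members with more RNA in both neutrophil groups of metastatic lung than in normal lung. In CPM, scaled by TMM, Ly6g measured 380, 361 and 380 in the Ly6Ghigh MACRO libraries, 385, 403 and 394 in the Ly6Glow MACRO libraries, and 120, 120 and 118 in NL. All 6 metastatic libraries were above all 3 NL libraries. Ly6g rose by 1.65 on the log2 scale in Ly6Ghigh MACRO over NL (SE 0.0350, adjusted p = 1e-20, edgeR's quasi-likelihood test), or 3.13-fold, and by 1.72 in Ly6Glow MACRO over NL (SE 0.0353, adjusted p = 4.44e-21), or 3.30-fold. In FPKM these were 2.27-fold and 2.03-fold.

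Between the sorted gates of metastatic lung, Ly6g RNA did not pass the threshold. The mean was 374 ± 10.8 CPM (SD, n = 3) in Ly6Ghigh MACRO and 394 ± 9.32 in Ly6Glow MACRO, a fitted log2 difference of 0.08 for Ly6Glow over Ly6Ghigh (SE 0.0334, adjusted p = 0.0577, edgeR). The direction turned with the scale, since in the authors' FPKM the means were 409 ± 11.4 in Ly6Ghigh MACRO and 366 ± 7.92 in Ly6Glow MACRO, a log2 ratio of -0.16. On each scale every library of one gate was above every library of the other, but in opposite directions. Over 21 alternative settings the difference ran from -0.16 to 0.14, and it passed both thresholds in 0 of them.

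Cd177 was the most abundant member in every library on a per-length scale. It measured 4248, 4131 and 4107 CPM in Ly6Ghigh MACRO, 3230, 3195 and 3057 in Ly6Glow MACRO, and 532, 475 and 516 in NL. The 3 groups did not overlap, and the order was Ly6Ghigh MACRO, then Ly6Glow MACRO, then NL. Its rise over NL was 3.04 on the log2 scale in Ly6Ghigh MACRO (SE 0.0381, adjusted p = 2.62e-24, edgeR), or 8.20-fold, and 2.64 in Ly6Glow MACRO (SE 0.0376, adjusted p = 1.27e-23), or 6.22-fold. In FPKM these were 5.94-fold and 3.83-fold. Ly6Glow over Ly6Ghigh MACRO gave -0.40 (SE 0.0351, adjusted p = 2.6e-09), which is short of the fold threshold of 0.58 on the count scale but past it on the FPKM scale (-0.63). In FPKM, Cd177 ranked 33 to 34 among all genes in Ly6Ghigh MACRO libraries, 63 to 65 in Ly6Glow MACRO and 274 to 298 in NL, while Ly6g ranked 163 to 174, 192 to 197 and 385 to 400.

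Ratios of FPKM within a library do not depend on how libraries were scaled. Ly6g to Cd177 was 0.277 ± 0.00797 in Ly6Ghigh MACRO, 0.385 ± 0.0157 in Ly6Glow MACRO and 0.728 ± 0.0470 in NL (SD, n = 3 each), with no overlap between groups. Set against Csf3r, the G-CSF receptor gene of the neutrophil lineage, Ly6g was 0.388 ± 0.0111, 0.222 ± 0.00222 and 0.221 ± 0.0107 in the same order, so that the Ly6Glow MACRO and NL libraries overlapped and Ly6Ghigh MACRO stood above both. Against S100a8, a subunit gene of calprotectin, Ly6g was 0.627%, 0.707% and 1.06%, the reverse order. Cd177 to Csf3r was 1.40 ± 0.0194, 0.578 ± 0.0191 and 0.303 ± 0.00564, and Cd177 to S100a8 was 2.26%, 1.84% and 1.46%, so Cd177 kept its order against both. With 3 libraries a group, an exact two-sided permutation test cannot give a p below 0.1, so these ratios carry no test. Both denominators, and Cdh5 and Kdr used further on, were chosen after the data were seen.

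**Figure D1:**
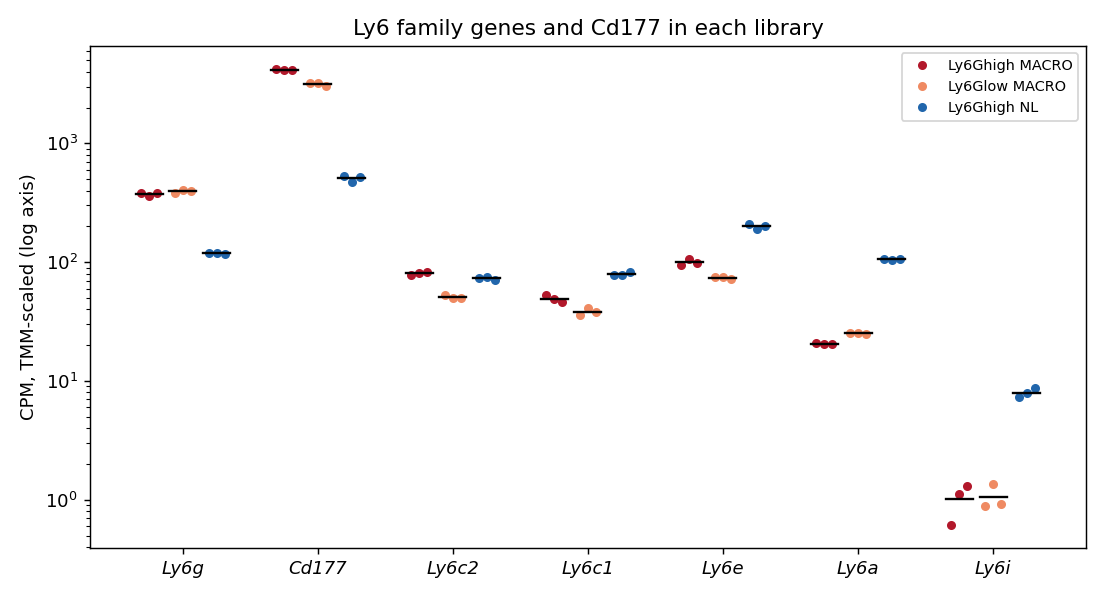
CPM (TMM-scaled, log axis) of the 7 tested members in each of the 9 libraries, with 3 points per group and a bar at the mean. Cd177 (4162, 3161 and 508 CPM on average) and Ly6g are highest in the metastatic groups, whereas Ly6a, Ly6c1, Ly6e and Ly6i are highest in normal lung.

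Ly6c2, which encodes a Ly6C antigen of monocytes and other myeloid cells, was the 1 member that passed both thresholds between the 2 neutrophil groups of metastatic lung. It measured 77.3, 81.6 and 82.2 CPM in Ly6Ghigh MACRO, 52.6, 49.8 and 50.2 in Ly6Glow MACRO and 74.2, 75.7 and 70.8 in NL. Ly6Glow MACRO was below both other groups in every library. It fell by 0.66 on the log2 scale in Ly6Glow over Ly6Ghigh MACRO (SE 0.0487, adjusted p = 1.33e-10, edgeR), or 1.58-fold. Against NL, Ly6Glow MACRO gave -0.53 (SE 0.0479, adjusted p = 8.58e-10), short of the fold threshold on counts and past it on FPKM (-1.24), and Ly6Ghigh MACRO gave 0.13 (SE 0.0438, adjusted p = 0.0105), with a sign that turned to -0.33 on the FPKM scale. Monocyte markers were mostly lower too in Ly6Glow MACRO. The 9 of them summed to 963.4 to 966.4 CPM in Ly6Ghigh MACRO and 725.2 to 745.6 in Ly6Glow MACRO. Of these, 0 rose and 4 fell, when 9.29% of all tested genes rose and 15.9% fell. Csf1r went the other way, from 217 CPM in Ly6Ghigh MACRO to 299 in Ly6Glow MACRO, short of the fold threshold. Eosinophil, B cell and primary granule markers fell there as well (below). The part of any of these in the lower Ly6c2 was not tested.

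Ly6c1, the near-identical neighbour, which endothelial cells also express, measured 52.8, 48.8 and 46.5 CPM in Ly6Ghigh MACRO, 35.9, 40.8 and 37.9 in Ly6Glow MACRO and 77.8, 78.4 and 82.3 in NL. The groups did not overlap. It fell by 0.69 on the log2 scale in Ly6Ghigh MACRO over NL (SE 0.0522, adjusted p = 5.35e-11, edgeR) and by 1.06 in Ly6Glow MACRO over NL (SE 0.0563, adjusted p = 8.61e-14), or -1.16 and -1.77 in FPKM. Between the metastatic groups it gave -0.37 (SE 0.0606, adjusted p = 2.08e-05), short of the fold threshold on counts and past it on FPKM (-0.60). Within libraries, the FPKM ratio of Ly6c1 to Ly6c2 was 0.601 ± 0.0589 in Ly6Ghigh MACRO, 0.741 ± 0.0680 in Ly6Glow MACRO and 1.07 ± 0.0731 in NL, with no NL library overlapping a metastatic one. The metastatic groups came close to touching, as Ly6Ghigh MACRO ran from 0.557 to 0.668 and Ly6Glow MACRO from 0.669 to 0.805.

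Ly6a, the gene of Sca-1, which marks stem and progenitor cells and endothelium, measured 20.7, 20.5 and 20.6 CPM in Ly6Ghigh MACRO, 25.1, 25.3 and 24.9 in Ly6Glow MACRO and 107, 104 and 107 in NL. It varied little within a group, and NL stood far above both others. It fell by 2.36 on the log2 scale in Ly6Ghigh MACRO over NL (SE 0.0475, adjusted p = 4.09e-21, edgeR), or 5.15-fold, and by 2.08 in Ly6Glow MACRO over NL (SE 0.0481, adjusted p = 3.1e-20), or -2.83 and -2.78 in FPKM. Between the metastatic groups the difference was 0.28 (SE 0.0603, adjusted p = 0.000375), short of the fold threshold, and 0.05 on the FPKM scale. Relative to Cdh5, the endothelial cadherin gene, the FPKM ratio of Ly6a was 3.34 ± 0.0591 in Ly6Ghigh MACRO, 3.57 ± 0.162 in Ly6Glow MACRO and 2.18 ± 0.0969 in NL. Relative to Kdr, the endothelial VEGF receptor gene, it was 13.1 ± 1.05, 14.8 ± 1.72 and 3.97 ± 0.101. Ly6a was thus lower in the metastatic groups in CPM but higher relative to either endothelial gene, by a size that depended on which was used. The FPKM ratios to Cdh5 in the same order were 9.34, 6.37 and 1.93 for Ly6c1, 15.6, 8.61 and 1.81 for Ly6c2, and 10.1, 6.61 and 2.59 for Ly6e. Those to Kdr were 36.7, 26.3 and 3.51 for Ly6c1, 61.0, 35.7 and 3.28 for Ly6c2, and 39.6, 27.4 and 4.71 for Ly6e. Each was lowest in NL.

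Ly6e, an interferon-inducible gene, measured 94.5, 107 and 97.7 CPM in Ly6Ghigh MACRO, 75.5, 75.0 and 72.1 in Ly6Glow MACRO and 208, 192 and 202 in NL. The groups did not overlap. It fell by 1.01 on the log2 scale in Ly6Ghigh MACRO over NL (SE 0.0446, adjusted p = 3.61e-15, edgeR) and by 1.43 in Ly6Glow MACRO over NL (SE 0.0474, adjusted p = 1.57e-17), or -1.48 and -2.14 in FPKM. Between the metastatic groups it gave -0.43 (SE 0.0503, adjusted p = 2.26e-07), short of the fold threshold on counts and past it on FPKM (-0.66).

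Ly6i was a scarce member, at 0.615, 1.12 and 1.3 CPM in Ly6Ghigh MACRO, 0.893, 1.35 and 0.915 in Ly6Glow MACRO and 7.32, 7.85 and 8.65 in NL. It fell by 2.96 on the log2 scale in Ly6Ghigh MACRO over NL (SE 0.188, adjusted p = 2.21e-12, edgeR) and by 2.90 in Ly6Glow MACRO over NL (SE 0.200, adjusted p = 8.52e-12), or -3.58 and -3.80 in FPKM. The metastatic groups overlapped (0.06, SE 0.309, adjusted p = 0.879). Its FPKM relative to Cdh5 was 0.143 ± 0.0554, 0.126 ± 0.0306 and 0.157 ± 0.0206, with overlap among all 3 groups. Relative to Kdr, another endothelial gene, it was 0.551 ± 0.193, 0.521 ± 0.140 and 0.285 ± 0.0319, with every metastatic library above every NL library, so the relative level depended on the marker. Ly6d, a gene of B-lineage progenitors and squamous epithelium, had 1, 4 and 3 estimated counts in Ly6Ghigh MACRO, 0, 2 and 3 in Ly6Glow MACRO and 8, 4 and 11 in NL. Summed, the ratio of Ly6Ghigh MACRO to NL was 0.468 (95% interval 0.181 to 1.08) and that of Ly6Glow MACRO to NL 0.373 (0.111 to 1.00), and the intervals cover counting error only.

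Across the 7 tested members, 0 rose and 1 fell in Ly6Glow over Ly6Ghigh MACRO, when 9.29% of all tested genes rose and 15.9% fell (25.2% either way). In Ly6Ghigh MACRO over NL, 2 rose and 4 fell, when 26.3% of all tested genes rose and 36.6% fell (62.9% either way), and in Ly6Glow MACRO over NL the count was again 2 and 4, against 28.7% and 40.8% (69.5% either way). The median log2 difference of the members was -0.37, -0.69 and -1.06 in these 3 comparisons, and -0.04, -0.09 and -0.16 over all tested genes. Comparisons with NL share their NL libraries. In CPM, 6 of the 7 members did not overlap between the metastatic groups, 2 higher and 4 lower in Ly6Glow, when 62.1% of all tested genes did not overlap (29% higher and 33.1% lower). All 7 did not overlap between Ly6Ghigh MACRO and NL, 3 higher and 4 lower, against 85.2% of all tested genes (40.2% and 45%). All 7 did not overlap between Ly6Glow MACRO and NL either, 2 higher and 5 lower, against 86.8% (39.4% and 47.5%). For every member, the log2 ratio of mean FPKM lay below the fitted count value. The offset was -0.291 to -0.232 in Ly6Glow over Ly6Ghigh MACRO and -0.614 to -0.46 in Ly6Ghigh MACRO over NL. In Ly6Glow MACRO over NL it was -0.905 to -0.7. The CPM carry a TMM factor for each library, applied to all its genes, whereas the FPKM were scaled by length and depth. These factors were 0.945 to 0.95 in Ly6Ghigh MACRO, 0.803 to 0.807 in Ly6Glow MACRO and 1.3 to 1.32 in NL. By limma on log2(FPKM + 0.1), the median of all tested genes was -0.24 in Ly6Glow over Ly6Ghigh MACRO, and 510 genes rose and 3578 fell, against 1310 and 2250 on counts. In Ly6Ghigh MACRO over NL it was -0.51, with 1756 and 6683 against 3712 and 5162, and in Ly6Glow MACRO over NL -0.81, with 1328 and 7891 against 4049 and 5760.

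**Figure D2:**
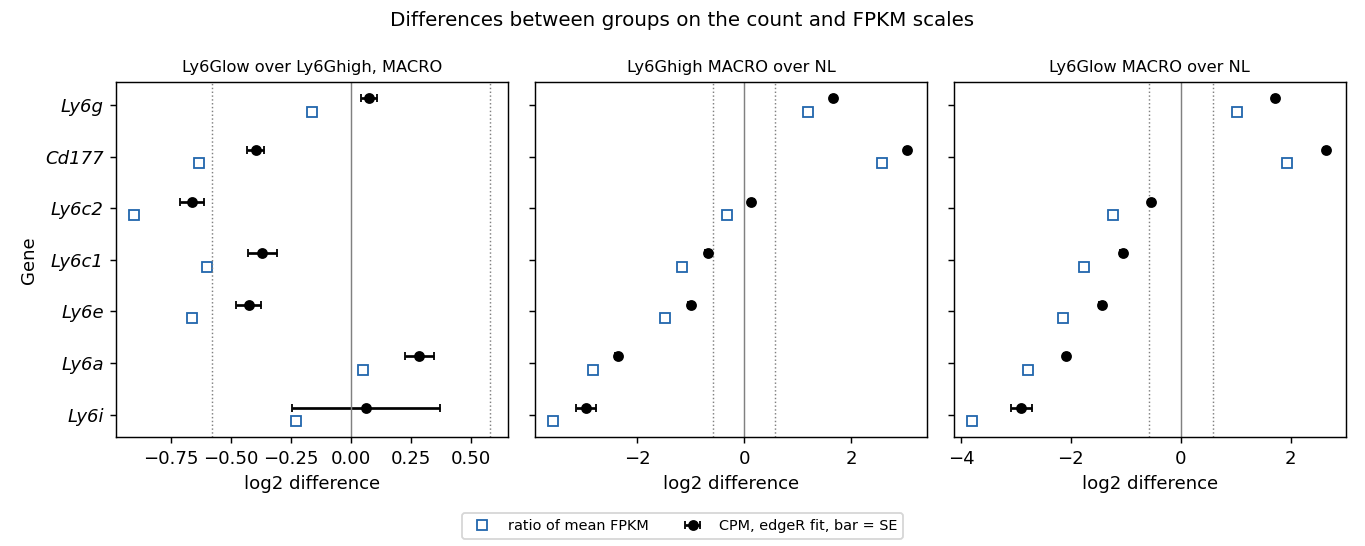
Log2 differences of the 7 tested members in 3 comparisons, as fitted on counts (black circles, bar = SE) and as the ratio of mean FPKM (open squares), with dotted lines at the fold threshold of 0.58. Every square lies to the left of its circle, and Ly6g between the metastatic groups (0.08 and -0.16) lies on opposite sides of 0, as do Ly6i there and Ly6c2 in Ly6Ghigh MACRO over NL.

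Genes described as working with the members were measured next. Counts for these and later lists stand against 25.2% of all tested genes called either way in Ly6Glow over Ly6Ghigh MACRO. The shares were 62.9% in Ly6Ghigh MACRO over NL and 69.5% in Ly6Glow MACRO over NL. CD177 has been described as associating with the integrin of Itgam and Itgb2 and with proteinase 3 (Prtn3), and as binding PECAM1. Whether it does so in these mouse cells was not tested. The 5 genes listed as partners were Itgam, Itgb2, Itgal, Prtn3 and Pecam1. Of these, 3 rose and 1 fell in Ly6Ghigh MACRO over NL, and 4 rose and 1 fell in Ly6Glow MACRO over NL. Between the metastatic groups 0 rose and 1 fell. Prtn3, a protease of the primary granules, rose from 0.737 ± 0.153 CPM in NL to 36.1 ± 0.823 in Ly6Ghigh MACRO and 7.61 ± 1.04 in Ly6Glow MACRO. Itgam, the CD11b gene, rose from 942 ± 14.7 in NL to 2858 ± 13.1 in Ly6Ghigh MACRO and 2837 ± 29.8 in Ly6Glow MACRO. The 1 that fell against NL was Pecam1, from 255 ± 7.64 to 63.2 ± 1.57 and 84.2 ± 2.43 CPM. It is also an endothelial gene.

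The specific granules, where CD177 resides, were followed by 10 genes. Of these, 9 rose and 0 fell in Ly6Ghigh MACRO over NL, as Cd177 did, 8 rose and 1 fell in Ly6Glow MACRO over NL, and 1 rose and 6 fell in Ly6Glow over Ly6Ghigh MACRO. The 1 that rose between the metastatic groups was Mmp8, from 2226 ± 26.3 CPM in Ly6Ghigh MACRO to 3621 ± 50.4 in Ly6Glow MACRO. Mmp8 is also counted among the 14 neutrophil markers below, as is Itgam. Camp, the cathelicidin gene, fell from 934 ± 18.5 CPM in Ly6Ghigh MACRO to 159 ± 6.40 in Ly6Glow MACRO. Chil3, a chitinase-like gene, fell from 1274 ± 23.5 to 277 ± 10.3 and Fcnb, a ficolin gene, from 41.0 ± 1.13 to 4.09 ± 0.532. The 4 primary granule genes all rose in both metastatic groups over NL and all fell in Ly6Glow over Ly6Ghigh MACRO. Ctsg was scarce, at 3.37 CPM in Ly6Ghigh MACRO, 0.827 in Ly6Glow MACRO and 0.12 in NL. Ly6Ghigh MACRO alone brought it past the filter on low counts. Its rise in Ly6Ghigh MACRO over NL and its fall in Ly6Glow over Ly6Ghigh MACRO thus follow from the filter. Of the 14 neutrophil markers, 8 rose and 0 fell in Ly6Glow over Ly6Ghigh MACRO, among them Trem1 (2910 ± 32.6 against 1412 ± 3.27 CPM). Against NL, 9 rose and 1 fell in Ly6Ghigh MACRO, and 12 rose and 0 fell in Ly6Glow MACRO.

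**Figure D3:**
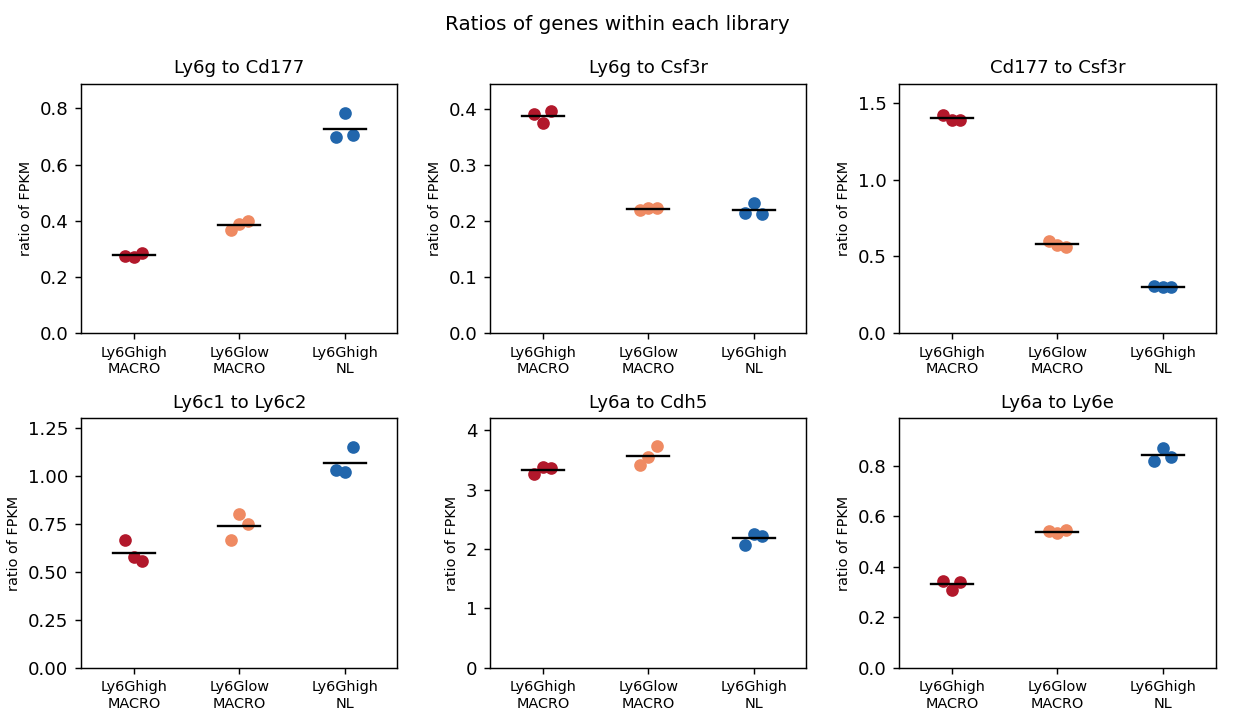
Ratios of FPKM within each library, which do not depend on library scaling, for 6 pairs of genes, with 3 points per group, a bar at the mean and axes from 0. Ly6g to Cd177 climbs from 0.277 to 0.385 to 0.728, Cd177 to Csf3r falls from 1.40 to 0.578 to 0.303, and Ly6a to Cdh5 is lowest in normal lung (2.18).

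Interferon-inducible genes were set beside Ly6a and Ly6e, which interferon induces. Of 29 tested, 17 rose and 0 fell in Ly6Glow over Ly6Ghigh MACRO, where neither Ly6a (0.28) nor Ly6e (-0.43) passed the threshold. The count of 17 became 5 by limma on log2(FPKM + 1). Isg15, a ubiquitin-like gene, was at 105 ± 8.14 CPM in Ly6Glow and 36.6 ± 1.00 in Ly6Ghigh MACRO, Gbp2 at 195 ± 2.88 and 84.8 ± 1.60, and Rsad2 at 20.5 ± 0.474 and 9.08 ± 0.938. In Ly6Ghigh MACRO over NL, 1 rose and 21 fell, and in Ly6Glow MACRO over NL 4 rose and 15 fell, as Ly6a and Ly6e fell there. Rsad2, an antiviral gene, was at 252 ± 10.7 CPM in NL.

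Of 36 further genes of the Ly6/uPAR family, 26 had values and 8 were tested. In Ly6Glow over Ly6Ghigh MACRO 1 rose and 0 fell, and against NL 0 rose and 6 fell in Ly6Ghigh MACRO, and 0 rose and 5 fell in Ly6Glow MACRO. The 1 called between the metastatic groups became 2 without Ly6Ghigh MACRO replicate 1, without Ly6Ghigh MACRO replicate 3 or without Ly6Glow MACRO replicate 2, and 3 with DESeq2's size factors. Among those that fell against NL, Cd59a, Lynx1 and Ly6g6c averaged at most 0.597 CPM in a metastatic group. NL alone brought them past the filter on low counts, so their fall follows from it. With at least 10 counts in every library, the counts against NL became 3 and 2. Plaur, the urokinase receptor gene, was the most abundant of these, at 701 ± 3.17 CPM in Ly6Ghigh MACRO, 1015 ± 20.5 in Ly6Glow MACRO and 1120 ± 72.0 in NL. It fell by 0.68 on the log2 scale in Ly6Ghigh MACRO over NL. Gpihbp1, a gene of capillary endothelium, fell from 21.3 ± 2.13 CPM in NL to 3.24 ± 0.761 and 4.43 ± 0.629. Of 28 tested genes of GPI-anchor synthesis and remodelling, 2 rose and 4 fell in Ly6Glow over Ly6Ghigh MACRO, where 25.2% of all tested genes were called. In Ly6Ghigh MACRO over NL 12 rose and 6 fell, against 62.9% called. In Ly6Glow MACRO over NL 13 rose and 9 fell, against 69.5%. Gpld1, whose product cleaves GPI anchors, was at 13.9 ± 0.671, 23.6 ± 1.94 and 3.81 ± 0.371 CPM in Ly6Ghigh MACRO, Ly6Glow MACRO and NL, and Piga, which acts at the first step of synthesis, was at 40.3 ± 1.25 in Ly6Glow MACRO and 11.5 ± 0.766 in NL. Others fell, such as Pigk, from 13.4 ± 0.884 CPM in Ly6Ghigh MACRO to 6.5 ± 0.476 in Ly6Glow MACRO. Pgap1 was at 13.8 ± 1.20 CPM in NL, 3.66 ± 0.740 in Ly6Ghigh MACRO and 2.56 ± 0.213 in Ly6Glow MACRO. Pigw, counted as fallen against NL, averaged at most 0.686 CPM in a metastatic group, and NL alone brought it past the filter.

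Markers of other cells also differed from NL. Endothelial, fibroblast, epithelial and macrophage markers mostly fell, as Ly6a, Ly6c1, Ly6e and Ly6i did, whereas Ly6g and Cd177 rose. In Ly6Ghigh MACRO over NL and in Ly6Glow MACRO over NL, all 10 endothelial and all 6 fibroblast markers fell. So did 11 and 10 of 11 tested epithelial markers, and 8 of 10 macrophage markers in each, when 36.6% and 40.8% of all tested genes fell. Krt5, Krt14 and Krt17 averaged at most 0.0792 CPM in a metastatic group. NL alone brought them past the filter on low counts, so their fall follows from it. The endothelial gene Kdr was at 9.92 ± 0.732 CPM in Ly6Ghigh MACRO, 10.4 ± 0.733 in Ly6Glow MACRO and 161 ± 2.29 in NL, and Krt5, of basal epithelium, had 0 counts in each metastatic library. Of 9 monocyte markers, 2 rose and 4 fell in Ly6Ghigh MACRO over NL and 1 rose and 5 fell in Ly6Glow MACRO over NL. T and NK cell markers (8 tested) gave 0 and 7 in both comparisons with NL, and 0 and 2 between the metastatic groups. Among them Klrb1c averaged at most 0.344 CPM in a metastatic group, and NL alone brought it past the filter. B and plasma cell markers (8 tested) gave 6 and 0 in Ly6Ghigh MACRO over NL, 2 and 2 in Ly6Glow MACRO over NL, and 0 and 7 in Ly6Glow over Ly6Ghigh MACRO. Of 7 eosinophil markers, 5 rose and 1 fell in Ly6Ghigh MACRO over NL, and 3 rose and 2 fell in Ly6Glow MACRO over NL. All 7 fell in Ly6Glow over Ly6Ghigh MACRO, where the list summed to 12.65 to 14.45 CPM against 192.4 to 207.4. Epx, Prg2 and Ear6 averaged at most 0.619 CPM outside Ly6Ghigh MACRO, which alone brought them past the filter. Between the metastatic groups, no endothelial or fibroblast marker passed the threshold, and 3 epithelial and 3 macrophage markers fell.

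**Figure D4:**
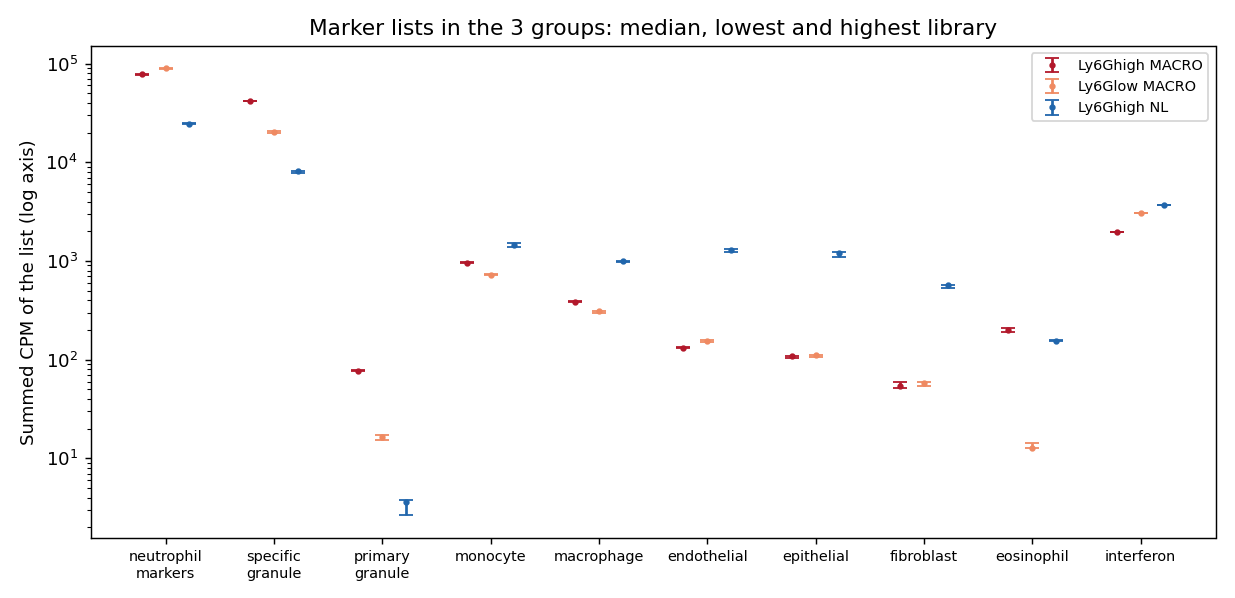
Summed CPM (log axis) of 10 marker lists in the 3 groups, with the median library as a point and the lowest and highest library as bars. Endothelial, epithelial and fibroblast sums are highest in normal lung (endothelial 1242 to 1310 CPM), whereas neutrophil and granule sums are lowest there.

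The genes whose log2 CPM followed each member most closely over the 9 libraries were named by Pearson's r, as a description of 3 groups of 3 that share their libraries. Ly6g went with Cd24a (r = 0.9994), Stfa3 and Atxn10, and Cd177 with Rcsd1 (r = 0.9996) and Was. Ly6a went with Ptprb (r = 0.9995), a vascular phosphatase gene, Icam1 and Slco2a1. Ly6c2 went with Rrm1 (r = 0.9953), a ribonucleotide reductase gene, Ly75 and Chil3. Ly6c1 went with Hmgn1 (r = 0.9955), Pianp and Snn, and Ly6e with Atp2a2 (r = 0.9983), Fasn and Lgmn. Such values were common, as 663 of 14107 other genes had r above 0.99 with Ly6g and 408 with Ly6a, but 1 with Ly6c2.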

How the data were processed

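The authors deposited an estimated count and an FPKM per gene and library. Per the labels, RNA was extracted with TRIzol, poly(A)-selected, made into strand-specific dUTP libraries and sequenced in 150-base paired reads by BGI. The deposited estimated counts (37.9% whole) carried no normalization, and the deposited FPKM were scaled by length and depth. The aligner and counter are not given in the sources used here. Counts were rounded and tested in R 4.3.3 with edgeR 4.0.16 (filterByExpr, TMM scaling, quasi-likelihood test) in a single model of 3 groups and 9 libraries. A call needed a Benjamini-Hochberg adjusted p of at most 0.05 over 14108 genes and an absolute log2 fold change above 0.58. CPM were computed from TMM-scaled library sizes. Alternatives used DESeq2 1.42.0 and limma 3.58.1, other scalings, filters and thresholds, and each library left out. The edgeR procedure was tested on simulated data. Coding sequences came from the principal GENCODE M21 transcripts and were aligned with mafft 7.526. The members and gene lists were chosen with earlier results of these data known. Named genes were the members, up to 3 called genes per list and comparison with at least 10 CPM in the higher group, fixed defining markers, and the 3 genes most correlated with each member averaging at least 10 CPM. Some genes that this rule names are not reported here.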

Additional observations from a re-analysis of the deposited data

How the results depend on the processing

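Over the alternatives tried, 406 values of members kept their direction and side of the threshold, 13 reversed, 20 gained and 2 lost a call. In Ly6Glow over Ly6Ghigh MACRO, 3560 genes were called, and 7868 with no fold threshold, 1305 with a threshold of 1, 2243 by limma on log2(FPKM + 1) and 2223 by limma on genes with FPKM of at least 1. Of the members, 1 was called, and 5, 0, 4 and 4 under the same settings, and 4 by limma on log2(FPKM + 0.1). Leaving out each library in turn gave 3387 to 3613 called genes in Ly6Glow over Ly6Ghigh MACRO, 8875 to 9081 in Ly6Ghigh MACRO over NL and 9805 to 9983 in Ly6Glow MACRO over NL, with 1, 6 and 6 members called each time. Reversed values were those of Ly6g in Ly6Glow over Ly6Ghigh MACRO (-0.1595, -0.1598 and -0.1595 by limma on FPKM), of Ly6i in the same comparison (-0.09191, -0.1604 and -0.09191 by limma, and -0.1938 to 0.2718 leaving out each library in turn, with -0.1938 without Ly6Ghigh MACRO replicate 1 and -0.1659 without Ly6Glow MACRO replicate 2), and of Ly6c2 in Ly6Ghigh MACRO over NL (-0.06459 with upper-quartile normalization, -0.04588 with at least 10 counts in every library, and -0.3294, -0.3321 and -0.3294 by limma). The cause was not tested. Ly6c2 in Ly6Glow MACRO over NL was called under 6 of its 21 alternatives, with values from -1.23 to -0.44. Ly6i and Ly6d are limited by depth.

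The libraries share replicate numbers, but the labels give these no meaning. The correlation of deviations between same-numbered libraries ran from -0.0683 to 0.0766, and 1 of 9 libraries correlated best with its own number. With the replicate number as a block, 3522, 8856 and 9775 genes were called in Ly6Glow over Ly6Ghigh MACRO, Ly6Ghigh MACRO over NL and Ly6Glow MACRO over NL, with 1, 6 and 6 members among them.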
